A study of Rattus norvegicus with 24 samples.

Results

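The HYP and CON samples of the right ventricle of rats, 6 of each, were compared on 2-colour microarrays. They are 12 of the 24 samples of the series and were taken by their labels alone. HYP is read here as compensated hypertrophy from the series title, which names monocrotaline injection, and CON as control. All 12 carry the label day 14. The other 12 samples are 6 labelled CHF (read as decompensated hypertrophy, or heart failure) from the right ventricle, and 2 of each condition from the left ventricle. The sources used here do not give strain, sex, age, dose, what CON rats received or whether each sample is a separate animal. P-values therefore measure only how these samples spread, and that spread may be technical.

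Monocrotaline is a plant alkaloid that damages the small vessels of the lung and raises the pressure against which the right ventricle pumps. A loaded ventricle thickens its wall, and while its output is held the hypertrophy is called compensated. Loaded heart muscle is known to return to genes of the fetal heart, among them skeletal alpha-actin and the natriuretic peptides, and to rebuild its contractile, calcium and energy-supplying machinery.

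Each value is read here as a signed score for the sample over a common reference pool, in SDs of its array, and not as a log2 ratio. The sources used here do not give its scale. Read as sample over pool, a score below 0 is less RNA, relative to the array's other probes, than in the pool. Differences are HYP minus CON with the SE of the limma fit. The 12 arrays held 2584 to 3658 values of 4803 probes. At least 4 values in each group were required, which left 2932 features, made up of 2605 named genes and 327 probes without a single gene name. A further 1521 named genes had too few values and were not tested. In heart tissue, fewer cells of a type and less RNA per cell cannot be told apart.

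Which way the scores run is not settled, because the sources used here do not give the dyes. Across all 18 right ventricle arrays the lowest correlation between a pair was -0.530, between HYP array 8 and CHF array 14. Among the 12 arrays compared here it was -0.123, between HYP arrays 4 and 8. Higher in HYP is an assumed reading, taken from Acta1 and Ankrd1, stress genes known to rise in a loaded ventricle. Of 14 genes listed for this purpose, 12 were measured, 5 had the sign that textbook knowledge gives and 7 had the opposite sign. Kcnip2, a potassium channel subunit known to fall, was among the latter at 1.22 ± 0.400 (limma unadjusted p = 0.00675). The sign of Acta1 gives no separate support for this direction.

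At an adjusted p below 0.05, 9 of 2932 features were higher in HYP (0.307%) and 0 were lower, in a limma fit that takes its spread from all 18 right ventricle arrays, CHF included. With the 12 HYP and CON arrays alone, limma called 0 features, the smallest adjusted p was 0.0778, and 96 had an unadjusted p below 0.05. The first fit was chosen with both counts known. In it, 109 features had an unadjusted p below 0.05 (3.72%), 66 of them higher (2.25%) and 43 lower (1.47%). The 9 features were the actin gene Acta1, the tropomyosin gene Tpm3, the muscle caveolin gene Cav3, the muscle calpain gene Capn3, the kinin receptor gene Bdkrb1, the monoamine oxidase gene Maoa, the calcium-binding protein gene Ocm, the nuclear scaffold gene Safb and a probe with no gene name. Without HYP array 4 the count was 3, as the calls of Acta1, Tpm3 and Ocm were lost (2.97, 1.75 and 1.95, limma adjusted p = 0.0570) with those of Maoa, Cav3 and Bdkrb1. Cav3 and Bdkrb1 were also lost without CHF arrays 10 and 14 (limma adjusted p = 0.0632 and 0.0671). With the sign of those CHF arrays turned the count was 1, the unnamed probe. For all 9 features the CHF scores, as deposited, spanned a narrower range than those of HYP or CON, and they enter the SE. With the 12 arrays alone the limma adjusted p of the 9 ran from 0.0778 to 0.192.

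**Figure D1:**
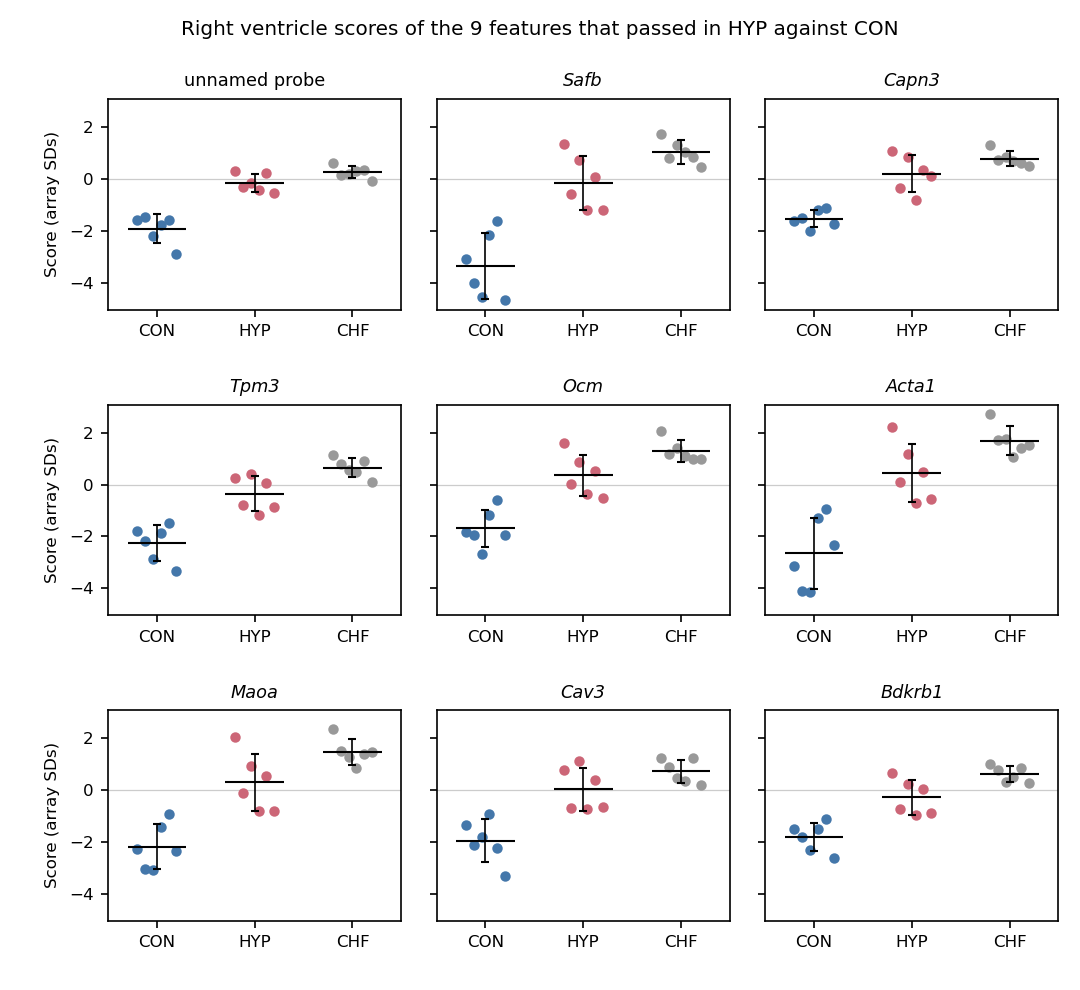
Centred score in array SDs (vertical axis) of each HYP, CON and CHF right ventricle array for the 9 features higher in HYP, with bars at the group means and error bars of 1 SD (n = 6 per group). The HYP and CON points do not overlap in any panel; for Acta1 the HYP points run from -0.697 to 2.23 and the CON points from -4.13 to -0.947.

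Promoter sequences are shown for the 3 called muscle genes whose windows held motifs of muscle or stress-responsive transcription. Each spans 250 bases before to 50 bases after the gene's start in RefSeq (GRCr8), on the gene's strand. Acta1 lies at chr19:68784145-68784444 on the minus strand, Capn3 at chr3:127861340-127861639 on the plus strand and Cav3 at chr4:147137743-147138042 on the plus strand. Capitals mark the matches.
Acta1: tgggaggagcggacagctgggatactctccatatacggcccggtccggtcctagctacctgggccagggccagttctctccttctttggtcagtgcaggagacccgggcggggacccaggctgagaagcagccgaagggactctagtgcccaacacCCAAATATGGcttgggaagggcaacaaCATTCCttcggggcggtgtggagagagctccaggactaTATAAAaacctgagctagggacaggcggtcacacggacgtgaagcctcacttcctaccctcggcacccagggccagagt
Capn3: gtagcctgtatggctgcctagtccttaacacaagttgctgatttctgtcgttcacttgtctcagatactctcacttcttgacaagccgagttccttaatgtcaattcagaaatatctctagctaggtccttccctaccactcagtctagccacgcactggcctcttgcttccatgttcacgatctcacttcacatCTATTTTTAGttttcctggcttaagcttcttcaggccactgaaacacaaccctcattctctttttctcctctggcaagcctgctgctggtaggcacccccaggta
Cav3: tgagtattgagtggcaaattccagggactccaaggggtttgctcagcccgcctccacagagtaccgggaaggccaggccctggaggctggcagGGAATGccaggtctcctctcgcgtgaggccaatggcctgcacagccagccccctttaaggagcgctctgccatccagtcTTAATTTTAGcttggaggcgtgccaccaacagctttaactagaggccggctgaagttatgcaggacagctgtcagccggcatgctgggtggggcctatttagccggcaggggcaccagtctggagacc

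The Acta1 window held a CArG box (the serum response factor motif) starting at -94, the M-CAT letters CATTCC (the motif of TEAD factors) at -67 and the TATA box letters TATAAA at -29, counted from the start. The Capn3 window held a MEF2 site, bound by a muscle transcription factor, at -55. The Cav3 window held a MEF2 site at -78 and the M-CAT letters on the opposite strand at -157. Both strands were searched, and the matches do not overlap one another. Of 33469 windows in the table, 1.64% held a CArG box, 14.2% the M-CAT letters, 3.29% a MEF2 site and 14.2% the TATA box letters. All 8 called genes had a window, of which 1 held a CArG box, 2 the M-CAT letters, 2 a MEF2 site and 1 the TATA box letters. A match is a description of the letters and says nothing of binding.

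Among genes of the contractile apparatus, Acta1, which encodes the skeletal alpha-actin of the fetal and loaded heart, had scores of -0.697 to 2.23 in HYP (median 0.285) and of -4.13 to -0.947 in CON (median -2.73). Every HYP array lay above every CON array. The difference was 3.11 ± 0.572 array SDs (n = 6 and 6, limma adjusted p = 0.0155). Tpm3, a tropomyosin of slow muscle fibres and of the cytoskeleton, ran from -1.18 to 0.411 in HYP (median -0.363) and from -3.32 to -1.48 in CON (median -2.03). The groups again did not overlap, and the difference was 1.91 ± 0.346 (limma adjusted p = 0.0155). Of 10 measured thin filament and tropomyosin genes, these were the only ones called, beside 0.307% of all features. This list and those of the other called genes below were chosen with earlier results of these data known. A called member therefore says nothing of its list. Tpm4, a cytoskeletal tropomyosin, differed by 1.66 ± 0.442 with overlapping groups and was not called (limma adjusted p = 0.304). Cfl1, an actin-severing protein, was at 1.05 ± 0.961 (n = 4 and 4) and Tmod1, which caps thin filaments, at 0.749 ± 0.360. The troponin genes had small differences, with Tnnc2 at -0.646, Tnni1 at -0.252, Tnnt2 at -0.249, Tnni3 at -0.166 and Tnni2 at 0.181, and none of them passed the test. The median over the 10 genes was 0.465, beside -0.0473 over all 2932 features, and it was -0.0483 when arrays were weighted by their quality.

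Cav3 encodes the caveolin that shapes the small membrane pits of muscle cells. Its scores ran from -0.750 to 1.11 in HYP (median -0.142) and from -3.33 to -0.936 in CON (median -1.96). The groups did not overlap, with the highest CON array close below the lowest HYP array. The difference was 1.98 ± 0.403 (limma adjusted p = 0.0357), and the call was lost when any of HYP arrays 1, 4 and 6 or CON arrays 18, 19, 21 and 22 was left out, at 1.71 to 2.01. Of 6 measured genes of the Z-disc, costamere and caveolae, Cav3 alone was called. The LIM proteins Csrp3, Fhl1 and Fhl2 were at 0.336, 0.158 and 0.0902, the chaperone Cryab at -0.257 and the integrin Itgb1 at -0.145. Of 8 thick filament and titin genes 0 were called, and their median was 0.115.

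Capn3 encodes the calcium-dependent protease that binds titin in striated muscle. It ran from -0.792 to 1.10 in HYP (median 0.228) and from -1.98 to -1.12 in CON (median -1.57), with no overlap. The difference was 1.74 ± 0.291 (limma adjusted p = 0.00991). Capn3 kept its call when each of the 12 arrays was left out in turn. The other 6 measured genes of the calpain system did not pass the test. The ubiquitous calpain subunits Capn1, Capn2 and Capns1 were at -0.0443, -0.674 and -0.108, Capn10 was at -0.156, Capn9 at 0.263, and the inhibitor calpastatin, Cast, at -0.0357.

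Bdkrb1 encodes the bradykinin receptor that is scarce in healthy tissue and induced by injury and inflammation. Its scores ran from -0.956 to 0.670 in HYP (median -0.338) and from -2.61 to -1.14 in CON (median -1.67), with no overlap. The difference was 1.54 ± 0.316 (limma adjusted p = 0.0357), and the call was lost without any of HYP arrays 1, 4 and 6 or CON arrays 18, 19 and 22, at 1.35 to 1.54. The constitutive receptor of the same family, Bdkrb2, was at 0.143. The remaining 5 measured genes of the kinin, renin-angiotensin and endothelin system were not called. Of these, neprilysin (Mme), which degrades bradykinin and natriuretic peptides, was at -0.832, endothelin-1 (Edn1), a vasoconstrictor, at -1.45, the chymase Cma1 at -0.443, the endothelin-converting enzyme Ece1 at -0.131 and the angiotensin receptor Agtr1b at 0.102. Without CON array 22, where Edn1 scored 3.56, its difference was -0.641.

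Maoa encodes the mitochondrial enzyme that breaks down noradrenaline and serotonin. It ran from -0.828 to 2.04 in HYP (median 0.210) and from -3.10 to -0.932 in CON (median -2.31). The groups did not overlap, and the difference was 2.47 ± 0.471 (limma adjusted p = 0.0198). The call was lost without any of HYP arrays 4 and 6 or CON arrays 18, 19 and 22, at 2.29 to 2.44. Its relative Maob was at -0.326 and the main cardiac beta-adrenergic receptor, Adrb1, at -0.717. Of 14 measured genes of adrenergic signalling and monoamine breakdown, Maoa alone was called, and the median was -0.0651.

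Ocm encodes oncomodulin, a small EF-hand calcium-binding protein related to parvalbumin. It ran from -0.505 to 1.58 in HYP (median 0.278) and from -2.66 to -0.586 in CON (median -1.89). The lowest HYP array lay just above the highest CON array, and the difference was 2.05 ± 0.375 (limma adjusted p = 0.0155). Pvalb, the parvalbumin of fast skeletal fibres, differed by 0.842 ± 0.240 and was not called (limma adjusted p = 0.502). Of 11 measured EF-hand calcium buffers, Ocm alone was called, and 3 had a difference above 0, beside 43.0% of all features.

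Safb encodes a nuclear protein that binds scaffold attachment DNA and RNA. It ran from -1.20 to 1.35 in HYP (median -0.260) and from -4.67 to -1.63 in CON (median -3.54), with no overlap. Its difference of 3.21 ± 0.530 was the largest of the 9 called features (limma adjusted p = 0.00991). Of 12 measured genes of the nuclear scaffold and splicing, 0 others were called, with Hnrnpa1 at 0.527 and Lmnb1 at 0.416 next highest. The unnamed probe ran from -0.536 to 0.323 in HYP and from -2.90 to -1.47 in CON. It differed by 1.76 ± 0.256 and had the smallest adjusted p, 0.00435 by limma. Leaving out each of the 12 arrays ended the call of neither Safb nor this probe.

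Within the groups, the called features shared an order of arrays. HYP array 1 was the highest of its group for 7 of the 9 features and HYP array 4 for 2, while HYP array 5 was the lowest for 6 and HYP array 8 for 3. CON array 21 was the highest of its group for 7, and CON arrays 22 and 19 were the lowest for 5 and 4. Deviations from the group means were correlated with those of Acta1 over the 12 arrays, in 8 relations, with permutation within groups. For Maoa, Pearson's r was 0.956 and Spearman's rho 0.909 (permutation p after Benjamini-Hochberg adjustment 0.000160 and 0.000480). For Ocm they were 0.925 and 0.867 (adjusted permutation p = 0.000240 and 0.00192), and for Safb 0.860 and 0.748 (0.00402 and 0.0302). For Capn3 they were 0.760 and 0.734 (adjusted permutation p = 0.00402 and 0.0203), and for Bdkrb1 0.720 and 0.685 (0.0212 and 0.0304). Tpm3 (r = 0.623, rho = 0.629), Cav3 (0.400 and 0.378) and the unnamed probe (0.287 and 0.371) did not pass, at adjusted permutation p of 0.0613, 0.253 and 0.439 for r. Without HYP array 1 and CON array 21, the arrays farthest from the median, r was 0.927 for Maoa, 0.853 for Ocm, 0.741 for Safb, 0.627 for Capn3, 0.503 for Bdkrb1, 0.455 for Tpm3, 0.436 for Cav3 and -0.0184 for the unnamed probe. The called genes are thus not shown to be separate findings. The part of an array-wide pattern in their differences was not tested. The first component of the deviations held 43.3% of their variance over the 18 right ventricle arrays.

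Of 1977 features with a value on all 12 arrays, 15 had groups that did not overlap (0.759%), 14 higher (0.708%) and 1 lower (0.0506%) in HYP. The 9 called features are among the 14. The others include Tas2r13, a bitter taste receptor gene, at 1.56 ± 0.367 (limma adjusted p = 0.129), Anxa1, an anti-inflammatory annexin, at 0.706 (limma adjusted p = 0.562), and the potassium channel gene Kcnh5 at 0.685 (limma adjusted p = 0.709). The feature that was lower was Kcnmb4, a potassium channel subunit gene, with HYP scores of -1.23 to -0.425 and CON scores of -0.360 to 0.813. It differed by -0.737 and was far from called (limma adjusted p = 0.9997). By an exact permutation test over the 12 arrays, 0 features were called. The 15 features without overlap had the smallest p that 924 splits allow, 0.00216, which came to 0.423 after adjustment over 2932 features. So few features could not pass this test however large their differences, and its count of 0 decides nothing about them. By that exact test, 100 features had an unadjusted p below 0.05.

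**Figure D2:**
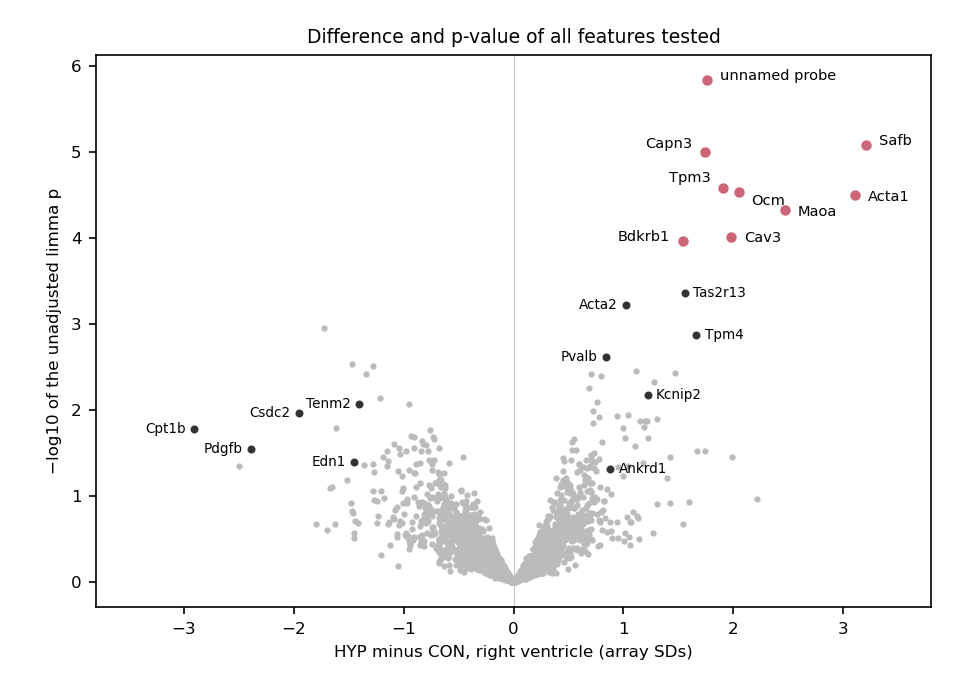
Difference between HYP and CON in array SDs (horizontal axis) against −log10 of the unadjusted limma p (vertical axis) for 2932 right ventricle features, with called features in red and some other named genes in black. The 9 called features all lie on the side higher in HYP, at differences of 1.54 to 3.21.

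Several genes next in rank by p were not called, and their probes did not always concur. Acta2, the smooth muscle actin, differed by 1.03 ± 0.249 (limma adjusted p = 0.160) as the mean of 3 probes, which gave 3.06, -0.0230 and 0.0438. The first of these probes ran from -1.18 to 1.45 in HYP and from -3.92 to -1.30 in CON, and the others overlapped between groups. Fgb, the fibrinogen beta chain, differed by 1.12 ± 0.335 (limma adjusted p = 0.562), with probes at 2.25 and -0.0130. Dynlt1, a dynein light chain, was at 0.759, and Arf3, a small GTPase of vesicle traffic, at 0.722.

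No feature was called lower in HYP. The named genes with the smallest p in that direction were Tenm2, a synaptic adhesion protein, at -1.40 ± 0.463 (limma adjusted p = 0.896) and Csdc2, an RNA-binding protein, at -1.95 ± 0.686 (limma adjusted p = 0.9997). Their groups overlapped, with Tenm2 at -1.15 to 0.164 in HYP and -0.134 to 3.11 in CON. Differences of -0.462 to -1.04 were measured for Mme, the syndecan Sdc3, the phosphatase Nudt4, the cyclooxygenase Ptgs1, catalase (Cat), the guanine deaminase Gda and the potassium channel Kcnh7, at limma adjusted p of 0.9997. Without HYP array 4 that of Nudt4 was -0.610, and without CON array 22 that of Kcnh7 was -0.530. The 2 probes of Gda gave -0.158 and -1.49.

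Of 15 measured genes of the fetal and hypertrophy programme, 1 was called, Acta1, against 0.307% of all features. The natriuretic peptide gene Nppa had values on 4 HYP and 5 CON arrays, from -4.85 to -0.336 and from -5.54 to 1.91, and differed by -0.575 ± 1.78. Nppb, the other natriuretic peptide, had values on 4 and 4 arrays and differed by -0.186 ± 0.405. For both genes the SE was larger than the difference. Ankrd1, a stress-induced titin-associated protein, ran from -0.868 to 1.76 in HYP and from -0.884 to 0.0035 in CON and differed by 0.878 ± 0.416 (limma unadjusted p = 0.0485, adjusted 0.9997). The cardiac myosin Myh6 was at -0.312 ± 0.666 and the calcium pump of the sarcoplasmic reticulum, Atp2a2, at 0.0688 ± 0.456. The cardiac transcription factor Gata4 was at -0.288, the matrix signal Ccn2 at 0.265, and the immediate early genes Egr1, Myc and Atf3 at 0.227, -0.0702 and 0.0934. In this programme 10 of 15 had a difference above 0, beside 43.0% of all features, and the median was 0.0934.

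In calcium handling and ion channels, 0 of 20 and 0 of 16 measured genes were called. Kcnip2, which governs the transient outward potassium current, ran from -0.0445 to 1.64 in HYP and from -1.43 to 0.626 in CON, and was not called at 1.22 ± 0.400 (limma adjusted p = 0.824). The calcium channel subunit Cacnb1 had values on 6 and 4 arrays and was at 1.66 ± 0.688 (limma unadjusted p = 0.0300). The calcium store protein Casq2 was at -1.80 ± 1.38. Medians were -0.0363 for calcium handling and -0.0566 for channels and pumps.

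In energy metabolism no gene was called. Over all 2932 features, 1670 had a difference below 0. Of 26 measured genes of fatty acid uptake and oxidation, 20 had a difference below 0 and the median was -0.312. The array medians of these genes overlapped, at -0.2045 to 0.3015 in HYP and 0.1455 to 0.626 in CON. Of 20 genes of the citric acid cycle and respiratory chain, 17 were below 0 and the median was -0.395, while the array medians of that list overlapped, at 0.265 to 0.930 in HYP and 0.101 to 1.64 in CON. Cpt1b, the muscle enzyme that admits fatty acids to mitochondria, had values of -4.68, -4.35, -4.24 and -0.549 in HYP, and of -3.34, -0.293, -0.238, 0.517 and 0.624 in CON. The groups overlapped through 1 array each, and the difference of -2.91 ± 1.07 was not called (limma unadjusted p = 0.0168, adjusted 0.9997). The long-chain enzyme Cpt2 was at -0.816 ± 0.499, lipoprotein lipase (Lpl) at -0.838 ± 0.859 and the adenine nucleotide carrier Slc25a4 at -1.06 ± 2.26. Hadha was at 1.03 ± 0.722 and the ATP synthase subunit Atp5f1b at 1.54 ± 1.20. Of 22 genes of glycolysis and glucose uptake, 14 were above 0 with a median of 0.111, among them the insulin-responsive glucose transporter Slc2a4 at 0.702 ± 0.310 and the pyruvate kinase Pklr at 0.680. Leaving out each of the 12 arrays moved the medians between -0.398 and -0.185 for fatty acids, between -0.548 and -0.127 for the citric acid cycle and respiratory chain, and between 0.0248 and 0.139 for glycolysis.

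**Figure D3:**
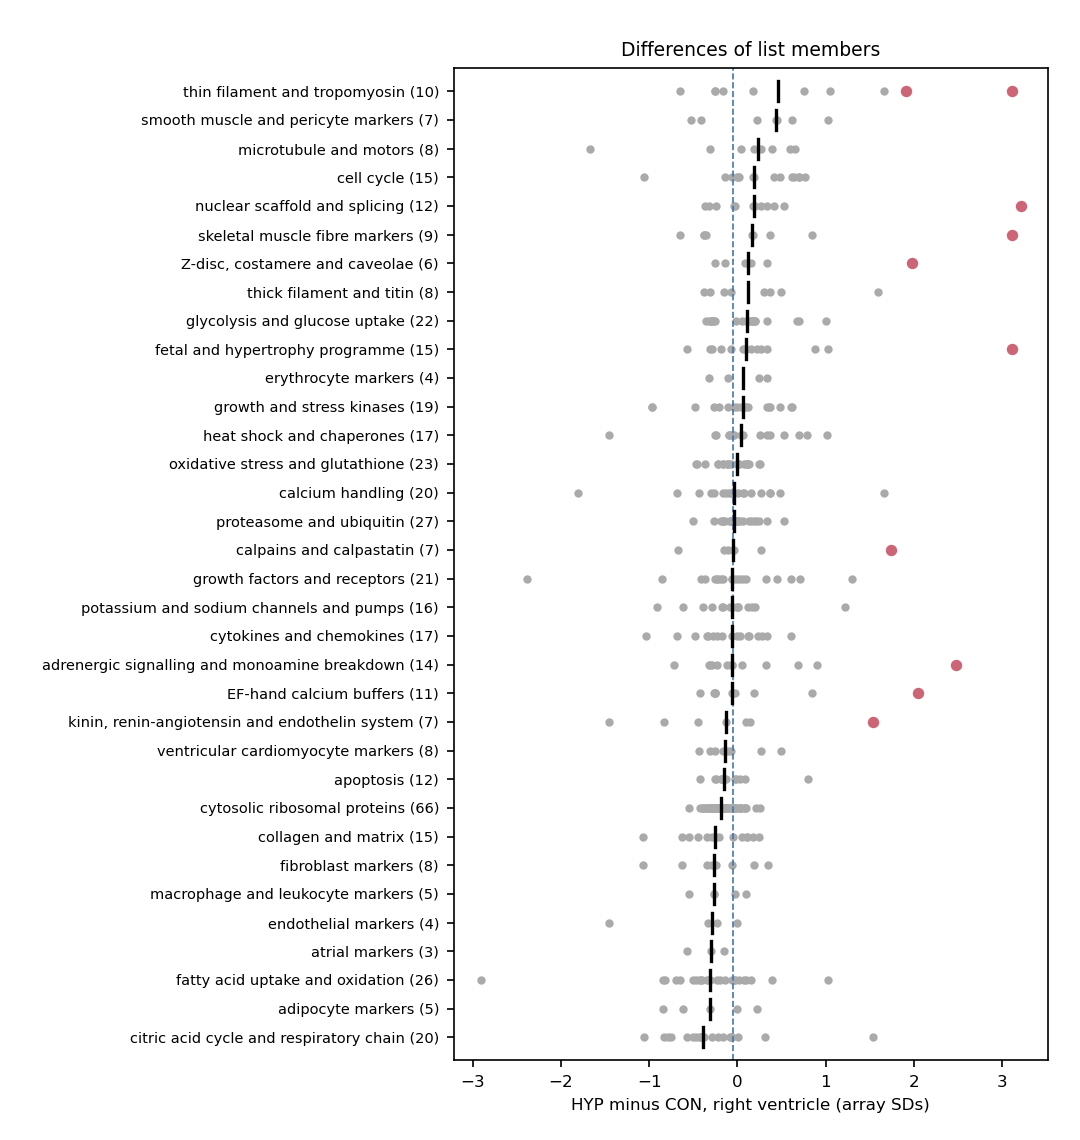
Differences between HYP and CON in array SDs (horizontal axis) of the measured genes of each list, with called genes in red, list medians as black bars, the number of genes in brackets and a dashed line at the median of all features (-0.0473). Medians run from -0.395 for the citric acid cycle and respiratory chain to 0.465 for the thin filament, and single called genes lie far to the right of the rest of their lists.

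In matrix, growth and stress genes, too, none was called. Shares above 0 in these lists stand beside 43.0% of all features. The median over 15 collagen and matrix genes was -0.255, with 5 above 0, and Col3a1, a fibrillar collagen, was at -1.07. The mitogen Pdgfb was at -2.39 ± 0.975 (n = 5 and 5, limma unadjusted p = 0.0284), and at -1.46 without CON array 17. The angiogenic factor Vegfa was at 1.30 ± 0.801, in a list of 21 growth factors and receptors with a median of -0.0565. The mitochondrial chaperone Hspa9 was at 1.02 ± 0.406 (limma unadjusted p = 0.0214) and the constitutive chaperone Hspa8 at -1.45 ± 1.39, in a list of 17 with a median of 0.0463. Cell cycle genes had 11 of 15 above 0 and a median of 0.192. Cytosolic ribosomal protein genes had 9 of 66 above 0 and a median of -0.186, from -0.543 for Rpl17 to 0.261 for Rps27l. Their array medians overlapped, at -0.031 to 0.7155 in HYP and 0.0955 to 0.8425 in CON. Medians were 0.0585 over 19 growth and stress kinases, -0.0015 over 23 oxidative stress genes, -0.153 over 12 apoptosis genes, -0.0568 over 17 cytokines and chemokines, 0.228 over 8 microtubule genes and -0.0385 over 27 proteasome genes.

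Markers of the cells a ventricle holds were read beside these results. Of 8 ventricular cardiomyocyte markers 0 were called, and the median difference was -0.137. The ventricular light chain Myl3 was at 0.499 and Ryr2 at 0.265. The ventricular light chain Myl2 was at -0.0678, Mb at -0.108, the cardiac troponins Tnni3 and Tnnt2 at -0.166 and -0.249, Myh6 at -0.312 and Pln at -0.432. Smooth muscle and pericyte markers had a median of 0.442 and none was called. Of these 7, 5 were above 0, beside 43.0% of all features, while Myh11 was at -0.416 and Cnn1 at -0.522. Their array medians ran from -0.262 to 0.449 in HYP and from -0.586 to 0.0325 in CON. Median differences were -0.264 for 8 fibroblast, -0.283 for 4 endothelial, -0.265 for 5 leukocyte, -0.314 for 5 adipocyte, -0.295 for 3 atrial and 0.0674 for 4 erythrocyte markers, with 0 called in each. Of 9 skeletal fibre markers, which include Acta1, Acta1 alone was called. Their array medians ran from -0.673 to 0.563 in HYP and from -0.453 to 0.566 in CON, and 5 of the 9 had a difference above 0, with a median of 0.170. The other 8 were Pvalb at 0.842 (limma unadjusted p = 0.00240), Atp2a1 at 0.372, Tnni2 at 0.181, Eno3 at 0.170, Pgam2 at -0.351, Myh1 at -0.373, Ckm at -0.376 and Tnnc2 at -0.646. As the scores are relative to a pool of unstated make-up, they give no absolute level by which the labelled tissue could be checked. With each of the 12 arrays left out, the median ran from -0.441 to 0.132 for cardiomyocyte, from 0.245 to 0.524 for smooth muscle, from -0.374 to -0.0545 for fibroblast, from -0.598 to -0.0878 for endothelial and from -0.333 to 0.444 for erythrocyte markers. The sign of the cardiomyocyte and erythrocyte medians thus turned with single arrays. For leukocyte, adipocyte, atrial and skeletal fibre markers it ran from -0.397 to -0.140, from -0.566 to -0.0948, from -0.575 to -0.0988 and from 0.0587 to 0.230. The part of any of these cell types in the called differences was not tested.

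Values in CHF are set beside those of HYP without a test, since both share the CON samples. The CHF scores of Acta1 ran from 1.08 to 2.71 (median 1.62), those of Capn3 from 0.500 to 1.32 (median 0.698) and those of Bdkrb1 from 0.268 to 1.01 (median 0.631). By the rule given above, CHF arrays 10 and 14 are among those whose sign is in doubt. These ranges hold them as deposited. The CHF means were 1.69 for Acta1, 1.04 for Safb, 0.651 for Tpm3, 1.29 for Ocm, 1.48 for Maoa, 0.726 for Cav3 and 0.258 for the unnamed probe. With the sign of both arrays turned, the CHF mean was 0.657 for Acta1, beside 0.450 in HYP, and 0.0252 for Cav3, beside 0.0223 in HYP. For all 9 features the mean of HYP lay between those of CON and CHF, as deposited, with these arrays turned and without them, although for Cav3 the turned means nearly coincide. That HYP lay above CON follows from how the 9 were chosen. How many of all features have this order was not counted, so it is a description of the 9 only.

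The difference between HYP and CON was also compared between the ventricles. In the left ventricle Acta1 was at -1.75 and -3.21 in the 2 HYP samples and at 0.410 and -0.850 in the 2 CON samples, so that both HYP values lay below both CON values. All 9 features had a lower mean in HYP than in CON there, such as -1.81 against -0.595 for Capn3, -1.67 against -0.215 for Bdkrb1 and -1.61 against 0.645 for Maoa. The share of all features that were lower there was not counted. CON left ventricle arrays 21 and 22 are among those whose sign is in doubt. Of 2662 features in this comparison 0 had an effect that differed between the ventricles at an adjusted p below 0.05 (0%) by limma, and 66 had an unadjusted p below 0.05 (2.48%). The right minus left effect was 5.37 ± 1.22 for Acta1 (limma adjusted p = 0.0858), 5.20 ± 1.16 for Safb (0.0836), 4.73 ± 0.974 for Maoa (0.0675), 2.95 ± 0.647 for Capn3 (0.0836) and 2.99 ± 0.657 for Bdkrb1 (0.0836). It was 3.48 ± 0.713 for Tpm3 (limma adjusted p = 0.0675), 3.36 ± 0.796 for Ocm (0.117), 2.93 ± 0.849 for Cav3 (0.543) and 3.01 ± 0.565 for the unnamed probe (0.0664). The right ventricle difference, for which the 9 were chosen, is part of this effect. Its size and p-value in the 9 are therefore no separate support for a difference between the ventricles. With the sign of the doubtful arrays turned, 33 features passed, and without right ventricle CON array 21, 7 did. Without HYP array 5 of the right ventricle or HYP array 3 of the left, 4 passed.

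**Figure D4:**
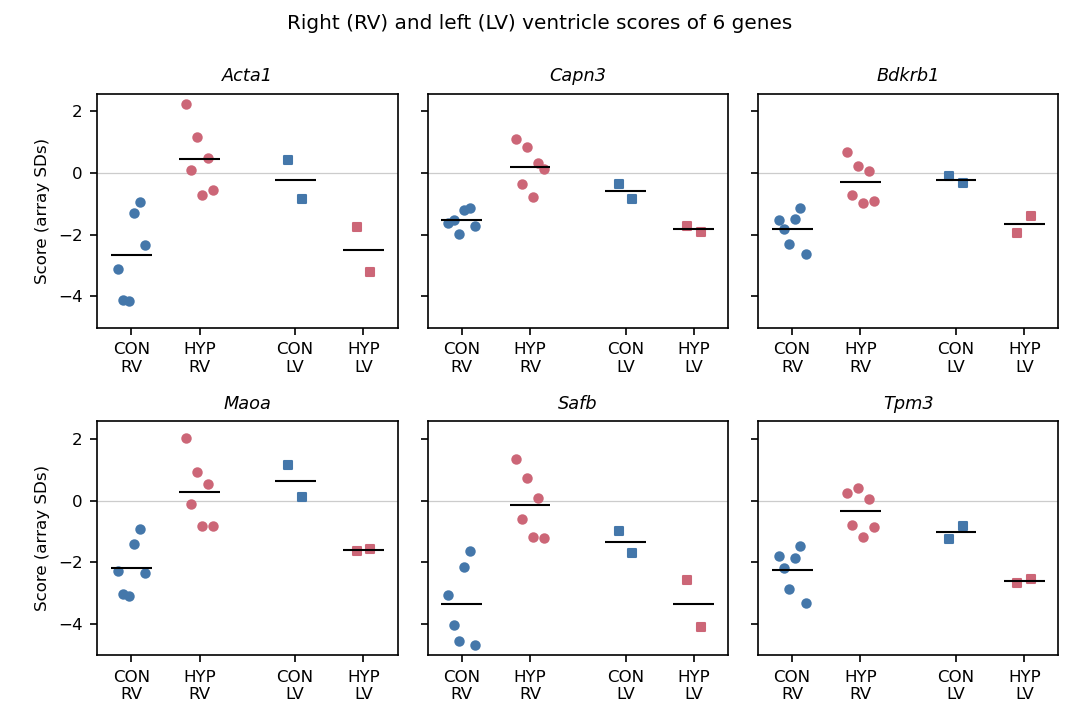
Centred score in array SDs of the HYP and CON arrays in the right and left ventricle for 6 of the called genes, with 6 arrays per right and 2 per left ventricle group and bars at the means. HYP lies above CON in the right ventricle and the mean of HYP below that of CON in the left, as for Acta1 at -2.48 against -0.220.

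**Figure D5:**
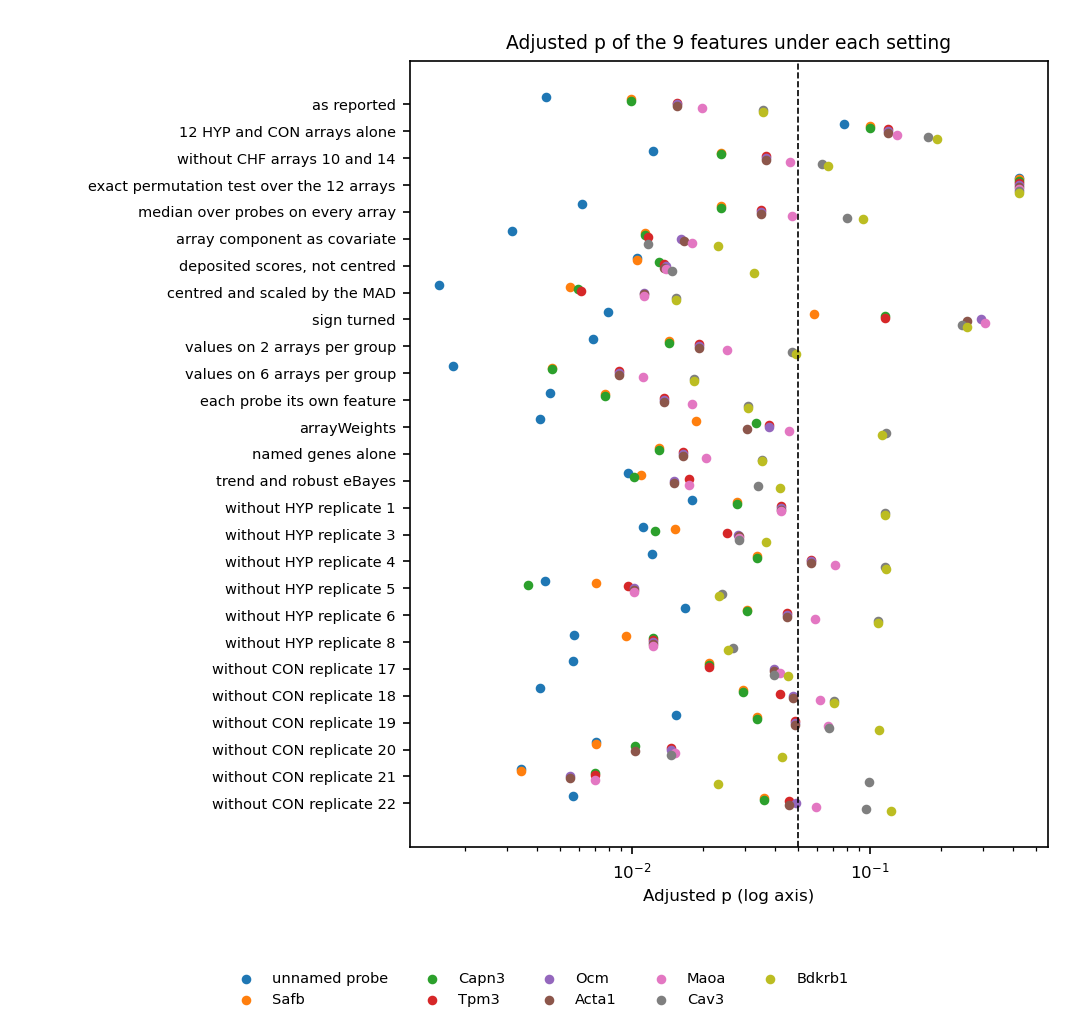
Adjusted p (horizontal axis, log scale) of the 9 features, by limma or by the exact permutation test, under each way of processing and with each array (replicate) left out, with a dashed line at 0.05. Safb, Capn3 and the unnamed probe keep to the left of the line whichever of the 12 arrays is left out, and every feature lies to its right with the 12 arrays alone.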

How the data were processed

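Per the labels, each 2-colour array carried 1 ventricle sample beside a reference pool. The authors deposited 1 score for each probe on an array; the sources used here do not give its scale, dyes, background correction or normalization. They were read as ratios standardised within each array. Of the 12 arrays, 23.8% to 46.2% of probes had no score. Each array was centred on its median (-0.108 to 0.208), and probes of a gene (125 of 4126 genes have several) were averaged. Symbols came from the platform annotation, which gave 1 symbol to 4278 of 4803 probes, several to 4 and none to 521; Entrez identifiers for 4257 were found in RefSeq (GRCr8) and changed 0 symbols. Groups were compared with limma 3.58.1 in R 4.3.3 (statmod 1.5.0), with Benjamini-Hochberg adjustment over all features and an adjusted p below 0.05. The right ventricle fit used 18 arrays in 3 groups; the comparison of ventricles used 24 in 6 groups, taking the left ventricle groups of 2 to vary like the others. The code was tested on simulated data. The number of arrays limits the precision. Alternatives were the arrays in the fit, centring, scaling, sign, array minimum, probe handling, weights, exact permutation and each array left out. Genes named are those called, those nearest to it in each direction with values on all 12 arrays, the fetal programme, the called gene families and the first of each list with an unadjusted p below 0.05. Other list members are given as examples chosen after their values were seen. The members, lists and fits were chosen with earlier results of these data known.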

Additional observations from a re-analysis of the deposited data

Results flagged for a closer look

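Of 96 groups of named features, 6 held an array far from the rest of its group, about what chance gives at 1 in 20. HYP array 4 was the highest for Tas2r13, at 2.496 against a next value of 1.40, and the lowest for Nudt4, at -1.98 against 0.104. CON array 22 was the highest for Kcnmb4, at 0.813 against 0.0345, and for Egr1, at 1.55 against -0.366. For Cpt1b, HYP array 6 was the highest at -0.549 against -4.24, and CON array 18 the lowest at -3.34 against -0.293.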

How the results depend on the processing

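The count of 9 features higher in HYP became 0 with the 12 arrays alone. It was also 0 by exact permutation, a test that so few features could not pass whatever their differences. The count became 1 with the sign turned, and 3 to 9 with each array left out. It was 7 to 11 under the other settings, among them 2 chosen after seeing the data. The array component as covariate, 1 of these 2, gave 11 by adding Tpm4 and Cpt1b. It is built from deviations within groups, so it narrows the spread and by construction leaves the difference of a feature with a value on every array as it was. The count of features whose effect differed between the ventricles, 0, became 33 with the sign turned, 3 where values on 6 arrays were required, and 0 to 7 with each array left out. With the number shared by right and left ventricle samples as a replicate block it was 6, at a correlation within blocks of 0.239. Deviations of same-numbered samples correlated at 0.243 and 0.261 in HYP and 0.0125 and 0.0577 in CON. These values cannot decide whether the numbers pair samples. Each left ventricle group holds only 2 arrays, and the sign of both CON arrays there is in doubt. HYP and CON share no number. The count of groups that do not overlap, 15, became 9 without centring and 8 with the median over probes on every array. With each array left out it was 15 to 21, but leaving out an array cannot lower this count. Among the named genes, signs turned only for those that were not called. Myc was at 0.0735 with array weights. With each array left out, Atf3 ran from -0.0852 to 0.409, Atp2a2 from -0.163 to 0.248, Egr1 from -0.271 to 0.644, Fhl1 from -0.126 to 0.392, Fhl2 from -0.0625 to 0.373, Gata4 from -0.718 to 0.0280, Myc from -0.213 to 0.110 and Nppa from -1.40 to 0.465. With array weights, the median differences of ventricular cardiomyocyte, endothelial, atrial, erythrocyte and fibroblast markers were -0.736, -0.859, -1.23, 0.899 and -0.0198; those of fatty acid and apoptosis genes were -0.146 and 0.0814, the last with its sign turned. The cause of these changes was not tested. The scores carry no signal over background, so no probe could be called absent.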
